A study of Homo sapiens with 7 samples.

Results

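The genes described here encode the aminoacyl-tRNA synthetases, the enzymes that join each amino acid to its tRNA. They comprise 36 genes, 20 whose enzymes work in the cytosol and 16 whose enzymes work in mitochondria, the latter named with the suffix 2. Members were taken by gene symbol, and all 36 were found among the 36337 gene names on the array, measured by 42 of its 50599 probes. A single probe measured 32 of them, and 4 (IARS, MARS, SARS and TARS2) had several. The data are 4 replicate cultures (replicates 1 to 4) of HCT116 H2B-GFP, a human colon carcinoma cell line with a near-diploid karyotype that expresses a fluorescent histone. All 4 had been exposed to bafilomycin A1 at 10 nM for 30 h, an inhibitor of the vacuolar proton pump that blocks lysosomal acidification and autophagic degradation. The labels give DMEM with 10% serum as the medium, whereas the methods give a lower serum share. The series also has 3 untreated samples of the line, not analysed here, so no effect of bafilomycin can be read from these values and no test between groups was possible. What can be described is the level of each synthetase under the drug and how far it moved between the replicate cultures.

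Each synthetase recognises 1 amino acid and its tRNAs, and the family falls into classes I and II, which differ in the fold of the catalytic domain. Human cells keep largely separate enzymes for the cytosol and for mitochondria, where they serve the translation of proteins encoded by mitochondrial DNA. GARS and KARS each encode both forms from 1 gene, and EPRS carries the activities for glutamate and proline on 1 chain. Several cytosolic enzymes sit in a multisynthetase complex with scaffold proteins, and many cytosolic synthetase genes are known targets of ATF4, a transcription factor induced when amino acids run short or the endoplasmic reticulum is stressed. Lysosomal degradation returns amino acids to the cytosol.

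The sequence at the gene starts was searched for a motif known for ATF4. ATF4 with a C/EBP partner binds elements of the form TGATGNAAN, where N is any base. This motif was searched on both strands in windows from 250 bases before to 50 bases after each gene start (RefSeq, GRCh38.p14). A window was at hand for 16 cytosolic and 14 mitochondrial synthetase genes, and DARS, LARS, VARS, YARS, AARS2 and VARS2 were not matched. The motif was present in 7 of the 16 cytosolic genes (43.8%), in 1 of the 14 mitochondrial genes (7.14%) and in 4.45% of all 27305 genes with a window. Of the 10 genes with a window on a list of ATF4 targets, 7 held it, and EPRS, SARS and WARS did not. The matches are shown 5′ to 3′ on the strand of the gene, with 10 bases on each side and the motif, in either orientation, in capitals.
AARS, chr16:70289676-70289704, minus strand: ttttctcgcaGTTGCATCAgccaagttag
CARS, chr11:3057408-3057436, minus strand: cggggcggcgGTTGCATCAgattctagga
GARS, chr7:30594834-30594862, plus strand: ttacgcggcgATTTCATCAtgctccgagc
IARS, chr9:92293693-92293721, minus strand: ttttcagcgcGTTGCATCAcctccgtgcg
MARS, chr12:57488053-57488081, plus strand: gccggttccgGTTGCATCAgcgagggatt
NARS, chr18:57621804-57621832, minus strand: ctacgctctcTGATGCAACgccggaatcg
TARS, chr5:33440956-33440984, plus strand: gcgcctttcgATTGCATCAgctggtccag
YARS2, chr12:32756076-32756104, minus strand: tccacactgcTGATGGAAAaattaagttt
Among the cytosolic matches, those of AARS, CARS, IARS and MARS read GTTGCATCA, NARS holds the same letters in the opposite orientation, and GARS and TARS differ from them. A match is a run of letters and not a measured binding site.

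Values throughout are log2 background-subtracted Cy3 signals minus the median of the array, so a difference of 1 is a 2-fold difference in signal. Errors are the SD between the 4 replicates, and the fold span of a gene is its highest over its lowest replicate. Levels of different genes cannot be compared as amounts of RNA, since each probe binds with its own strength. In bulk RNA, fewer cells with a transcript and less of it per cell cannot be told apart. All 4 arrays lay on 1 slide, so slide and group cannot be told apart. Between 55.6% and 60.4% of spots were well above background, no spot of a member was saturated, and outlying spots numbered 514 to 725 on replicates 1, 2 and 4 and 2249 on replicate 3. Of 6 epithelial markers, 5 were detected on every array, among them EPCAM, KRT18 and KRT19, whereas VIL1 was detected on none. Of 7 markers of other cell types, PTPRC (by 1 of 5 probes), CD3E and COL1A1 were detected, and PECAM1, ALB and GFAP were not. CD14 had values on 2 arrays, 1.16 and 1.29.

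Detection required 1 or more probes of a gene to be flagged as well above background on each of the 4 arrays. All 20 cytosolic and 14 of the 16 mitochondrial synthetases met this, against 52.5% of all gene names on the array. The median level was 5.55 for the cytosolic genes, with a range from 3.03 (FARSB) to 8.29 (QARS). It was 3.32 for the mitochondrial genes, both over the 16 and over the 14 detected, which ran from 1.61 (WARS2) to 6.80 (CARS2). The median of all detected genes was 2.06, and 20 of 20 cytosolic and 12 of 14 detected mitochondrial genes lay above it.

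**Figure D1:**
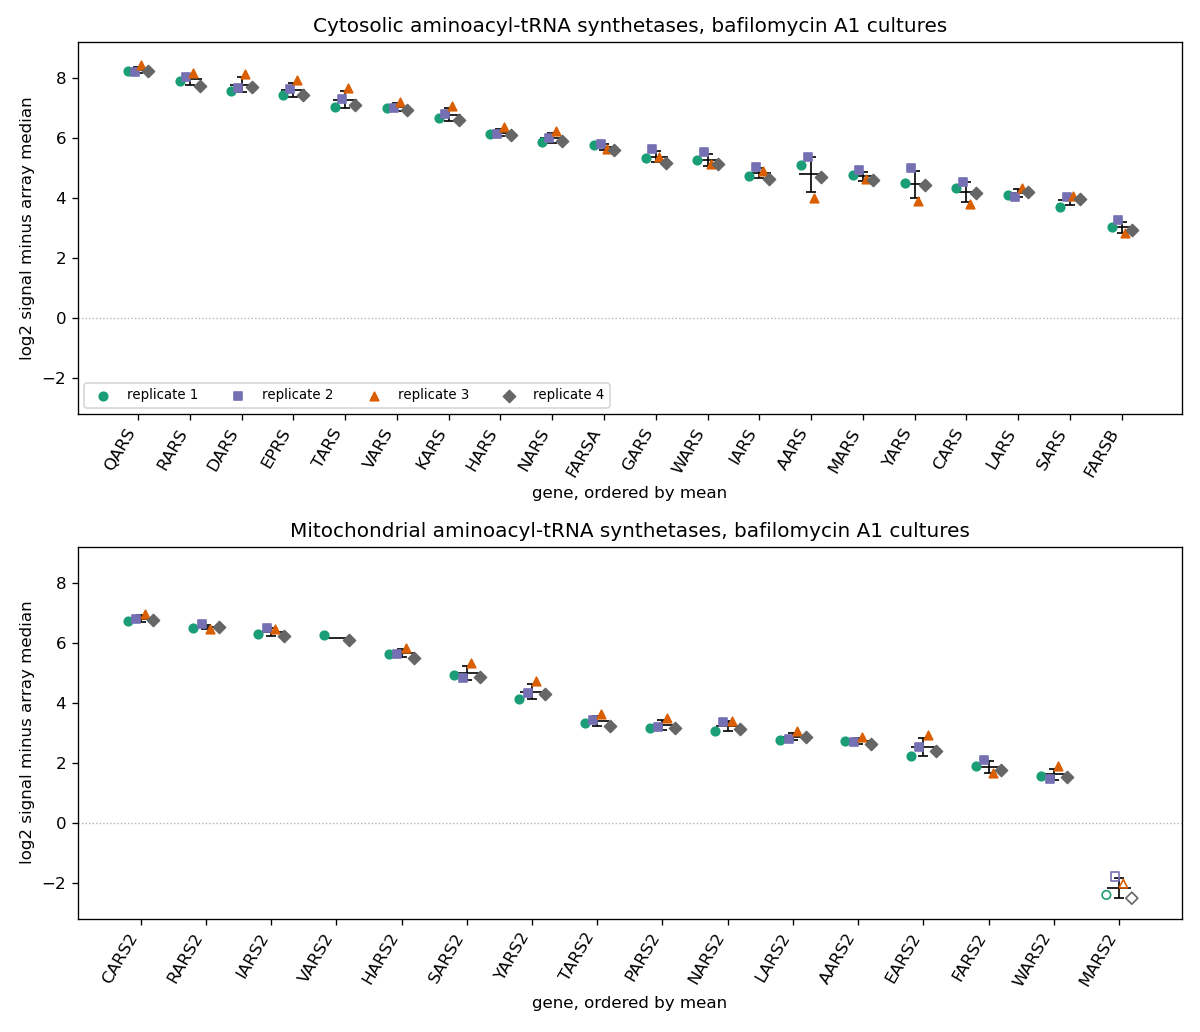
Log2 signal minus the array median (vertical axis) of the 20 cytosolic (top) and 16 mitochondrial (bottom) synthetase genes, ordered by mean. Symbols are the 4 replicates, horizontal ticks the mean and bars the SD, open symbols mark a gene not detected on an array, and VARS2 has values on 2 arrays. AARS, YARS and CARS have the largest spread of the cytosolic genes, with replicate 2 highest and replicate 3 lowest.

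The 8 enzymes of the multisynthetase complex were all detected, with a median level of 7.21. QARS, which charges glutamine tRNA, gave the highest values of the family at 8.25, 8.22, 8.44 and 8.26 on replicates 1 to 4, a mean of 8.29 ± 0.10 (SD, n = 4). RARS, the arginine enzyme, measured 7.91, 8.05, 8.18 and 7.75. DARS, the aspartate enzyme, measured 7.59, 7.67, 8.15 and 7.72 and spanned 1.47-fold. In all of these genes replicate 3 was the highest, and in DARS the other replicates lay close together. EPRS, which charges glutamate and proline tRNAs, measured 7.44, 7.64, 7.93 and 7.46 with a span just over 1.4-fold. KARS, which supplies lysyl-tRNA to both the cytosol and mitochondria, measured 6.68, 6.81, 7.08 and 6.61. LARS, the leucine enzyme and a known sensor of leucine for mTORC1, measured 4.11, 4.06, 4.35 and 4.21. IARS and MARS, for isoleucine and methionine, had their highest value on replicate 2, and their single probes are described further on. The complex enzymes as a list had mean departures from their own 4-array means of -0.09, 0.03, 0.18 and -0.12 on replicates 1 to 4. On replicate 3, 7 of 8 lay above their own mean, against 63.1% of all detected genes. After quantile normalization the mean departure on replicate 3 was 0.04, and 6 of 8 lay above, against 53.7%. QARS was then highest on replicate 4 and RARS on replicate 2.

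The 12 cytosolic enzymes outside the complex had a median level of 5.33 and the largest movements of the family. AARS, which charges alanine tRNA, measured 5.10, 5.38, 4.03 and 4.72, a mean of 4.81 ± 0.59 and a span of 2.56-fold. YARS, the tyrosine enzyme, measured 4.53, 5.02, 3.92 and 4.44, a mean of 4.48 ± 0.45 and a span of 2.14-fold. CARS, the cysteine enzyme, measured 4.35, 4.56, 3.80 and 4.17, a mean of 4.22 ± 0.32 and a span of 1.70-fold. In all of these genes replicate 2 was highest, replicate 3 was lowest, and the order of the 4 arrays was the same. On replicate 3 the departure from the 4-array mean was -0.78 for AARS, -0.56 for YARS and -0.42 for CARS, and on replicate 2 it was 0.58, 0.54 and 0.34. Of all 19083 detected genes, 11.2% were highest on replicate 2 and lowest on replicate 3, as were 6 of the 34 detected synthetases (17.6%): AARS, YARS, CARS and FARSB in the cytosol and FARS2 and RARS2 in mitochondria.

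TARS, the threonine enzyme, had a different order, with 7.06, 7.32, 7.68 and 7.12, a mean of 7.29 ± 0.28 and a span of 1.54-fold. Its highest value was on replicate 3 and its lowest on replicate 1. GARS, which serves glycine in both compartments, measured 5.36, 5.64, 5.37 and 5.19 and was highest on replicate 2. WARS, the tryptophan enzyme, also known as an interferon-induced gene, measured 5.28, 5.56, 5.14 and 5.13. The subunits of the phenylalanine enzyme, FARSA and FARSB, measured 5.76, 5.83, 5.65 and 5.62 and 3.05, 3.28, 2.86 and 2.95. FARSA had the smallest spread of the cytosolic genes (5.72 ± 0.10), and both subunits were highest on replicate 2. NARS, the asparagine enzyme, measured 5.88, 6.01, 6.25 and 5.90. Its probe was printed at 10 spots, whose SD within an array was 0.06 to 0.18, beside an SD between arrays of 0.17. These SDs are not like measures, since the first is over single spots and the second over averages of spots. VARS, the valine enzyme, had a mean of 7.05 ± 0.12 with its highest value on replicate 3.

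HARS, the cytosolic histidine enzyme, and HARS2, its mitochondrial counterpart, are transcribed in opposite directions from starts that lie side by side on chromosome 5. The bases between their starts, chr5:140691371-140691454 on the plus strand (RefSeq, GRCh38.p14), are shown because both genes share them.
HARS to HARS2: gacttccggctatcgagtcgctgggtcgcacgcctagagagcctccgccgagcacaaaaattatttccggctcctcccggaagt
This stretch of 84 bases has a G and C content of 59.5%, and HARS lies to its left and HARS2 to its right. HARS measured 6.15, 6.14, 6.38 and 6.11, and HARS2 measured 5.63, 5.64, 5.83 and 5.50. Both were highest on replicate 3 and lowest on replicate 4, with spans of 1.21-fold and 1.25-fold. Of all detected genes, 48.5% were highest on replicate 3 and 35.1% lowest on replicate 4. The shared order was not kept after quantile normalization. HARS was then highest on replicate 3 and lowest on replicate 2, and HARS2 highest on replicate 1 and lowest on replicate 4. Their spans were then 1.06-fold and 1.08-fold.

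Among the mitochondrial enzymes, EARS2, which charges glutamate tRNA, had the largest spread of those detected. It measured 2.21, 2.52, 2.92 and 2.39, a mean of 2.51 ± 0.30 and a span of 1.64-fold. YARS2, the tyrosine enzyme, measured 4.13, 4.31, 4.73 and 4.29 (4.37 ± 0.26), a span of 1.52-fold. SARS2, the serine enzyme, measured 4.93, 4.82, 5.32 and 4.85 (4.98 ± 0.23), a span of 1.42-fold. In all of these genes replicate 3 stood above the other replicates, so YARS2 was highest on the array where cytosolic YARS was lowest. The same held for AARS2, the alanine enzyme, which was highest on replicate 3 with 2.71, 2.68, 2.85 and 2.61 (2.71 ± 0.10). CARS2, the cysteine enzyme, measured 6.71, 6.78, 6.95 and 6.76 (6.80 ± 0.10), but after quantile normalization it was lowest on replicate 3, with a span of 1.04-fold.

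RARS2, the arginine enzyme, had the smallest SD of the 34 detected synthetases on this scale, with 6.49, 6.63, 6.46 and 6.51 (6.52 ± 0.07), though not after quantile normalization, where its SD was 0.15 and that of CARS2 0.02. FARS2, the phenylalanine enzyme, measured 1.88, 2.10, 1.64 and 1.76 (1.85 ± 0.20). These are the mitochondrial genes that were lowest on replicate 3, and FARS2 had the same order of the 4 arrays as the cytosolic subunit FARSB. IARS2, the isoleucine enzyme, was high at 6.36 ± 0.13. LARS2, NARS2, PARS2 and TARS2, for leucine, asparagine, proline and threonine, lay between 2.87 and 3.39 on average. WARS2, the tryptophan enzyme, was the lowest of those detected, at 1.57, 1.45, 1.88 and 1.53. For proline the mitochondrial gene PARS2 has no separate cytosolic partner, since EPRS does that work. PARS2 measured 3.15, 3.18, 3.49 and 3.15. Replicate 3 stood apart from the rest in PARS2, HARS and QARS by the ratio of its gap to the range. This makes 3 of the 34 detected synthetases with such an array, against 8.48% of all detected genes. After quantile normalization QARS was highest on replicate 4, and HARS departed by 0.03 on replicate 3 and 0.02 on replicate 1.

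MARS2, the mitochondrial methionine enzyme, was the only member not detected on any array. Its probe was printed at 10 spots, and 0, 4, 4 and 0 of the 10, 10, 9 and 9 used spots were well above background on replicates 1 to 4. The mean signals were 14.5, 20.2, 17.1 and 11.1 intensity units, which gave log2 values of -2.41, -1.79, -2.03 and -2.52. Its level was therefore not measurable at this sensitivity, and its spread is not read. VARS2, the valine enzyme, was bright but failed the call for another reason: its only spot carried a background outlier flag on replicates 2 and 3. It measured 6.24 and 6.08 on replicates 1 and 4. With outlying spots kept it measured 6.24, 6.36, 6.25 and 6.08, a span of 1.21-fold. A second probe of TARS2 gave signals below 0 on every array, and on this scale the gene's value rests on the other probe. With the processed signal and 75th-percentile centring TARS2 lay at -2.79, beside 0.91 for PARS2. After normexp and quantile normalization it lay at 7.83, beside 9.51 for PARS2.

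The cytosolic and mitochondrial genes were then compared. The cytosolic median lay 2.24 above the mitochondrial one on the log2 scale, and this difference was 2.33, 2.38, 2.02 and 2.22 on replicates 1 to 4. It was smallest on replicate 3, and the ranges of the lists overlapped widely. Since each gene is read by its own probe, this is a difference of probe signals and no measure of relative RNA amounts.

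The spread between replicates was described by compartment. The median SD was 0.18 for the cytosolic and 0.16 for the detected mitochondrial genes, against 0.21 for all detected genes. Most members were brighter than the median detected gene, and the comparisons of spread were not matched for level. A span over 1.4-fold was seen in 6 of 20 cytosolic genes (AARS, CARS, DARS, EPRS, TARS and YARS) and 3 of 14 mitochondrial genes (EARS2, SARS2 and YARS2), together 26.5% of the detected members, against 46.4% of all detected genes. This gap depended on the processing: after normexp background correction and quantile normalization it was 14.7% of members against 15.6% of all detected genes, and the median SD was 0.13 for members and 0.11 for all. It was 14.7% against 39.1% with the processed signal and 75th-percentile centring, and 38.2% against 51.4% when centred on the median over all probes. EPRS and SARS2 lay just past the limit. AARS and YARS were the members whose span exceeded 2-fold.

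**Figure D2:**
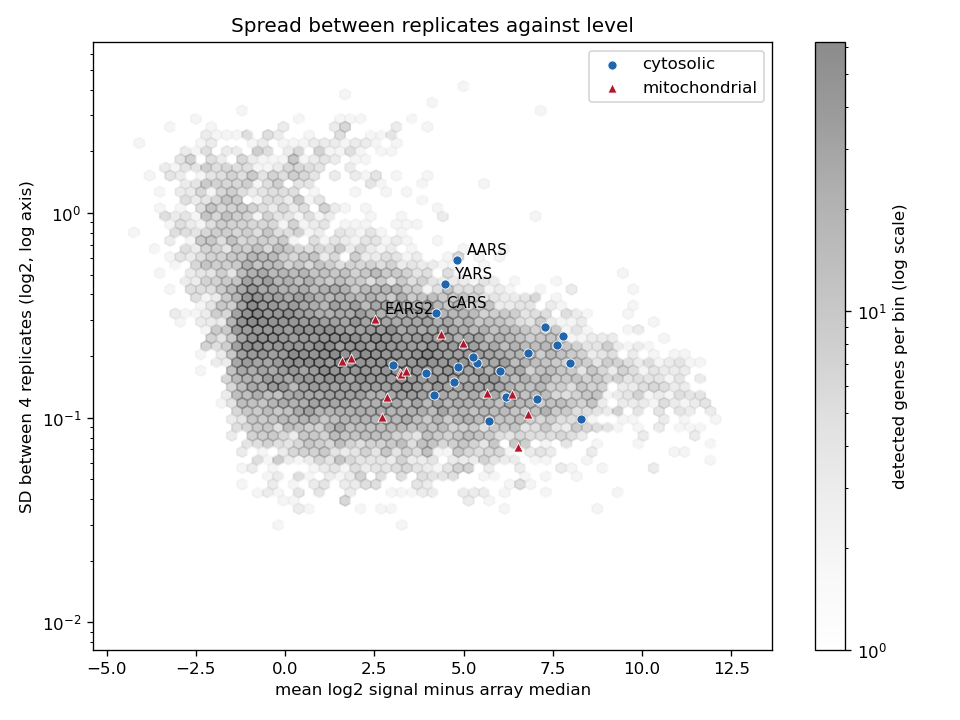
SD between the 4 replicates (vertical, log axis) against mean log2 signal minus the array median (horizontal), for all 19083 detected genes (grey hexagons, darker for more genes), the cytosolic (circles) and the detected mitochondrial synthetases (triangles). AARS (0.59), YARS (0.45) and CARS (0.32) lie above most genes of like level, and most other members lie within the grey field.

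Spans were also counted by class and list. A span over 1.4-fold was seen in 2 of 9 cytosolic class I and 3 of 10 class II genes, EPRS belonging to both. It was seen in 5 of the 13 cytosolic genes on the ATF4 target list (AARS, CARS, EPRS, TARS and YARS) and in 1 of the other 7. At 38.5%, the share on the ATF4 list was below the 46.4% of all detected genes. After quantile normalization 4 cytosolic genes passed the limit (AARS, CARS, WARS and YARS), all of them on this list. The share on the list was then above the 15.6% of all detected genes. Of the 13 genes on the list, 7 lay above their own mean on replicate 3, against 63.1% of all detected genes. After quantile normalization 5 did, against 53.7%. TARS and AARS, which both hold the motif near the gene start, lay at the upper and lower extreme of the list. The mean departures of this list were -0.04, 0.18, -0.04 and -0.10 on replicates 1 to 4, against -0.02, 0.03, 0.07 and -0.09 for all detected genes. The list's median departure on replicate 3 was 0.08, with the opposite sign to its mean, and was -0.07 after quantile normalization.

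The arrays were then compared by where each gene was highest and lowest. The highest value was on replicate 3 in 11 of 20 cytosolic and 11 of 14 detected mitochondrial genes, together 22 of 34, against 48.5% of all detected genes. The highest value was on replicate 2 in the other 12, against 25.3% of all detected genes, and on replicates 1 or 4 in none, against 20% and 6.18%. After quantile normalization the excess on replicate 3 was gone: 13 of 34 members (38.2%) were highest there, against 39.5% of all detected genes, and 3 and 5 members were highest on replicates 1 and 4. The excess stayed with the processed signal and 75th-percentile centring, at 55.9% of members against 40.5%. Centred on the median over all probes, it was 67.6% against 52.5%. The lowest value was on replicates 1, 2, 3 and 4 in 11, 4, 6 and 13 of the 34, against 26.9%, 14.8%, 23.2% and 35.1% of all detected genes. The mean departure on replicate 3 was 0.18 for the detected mitochondrial genes, 0.02 for the cytosolic genes and 0.07 for all detected genes, and the medians were 0.18, 0.14 and 0.10. AARS, YARS and CARS had the lowest departures among the cytosolic genes. The cytosolic mean on replicate 3 changed sign with the scaling, to -0.05 with the processed signal and centring on the 75th percentile, and to -0.12 after quantile normalization, whereas the mitochondrial mean stayed above 0 at 0.09 and 0.05. The low values of AARS, YARS and CARS on replicate 3 stood with all 4 scalings, with spans of 2.39- to 2.67-fold, 2.00- to 2.23-fold and 1.59- to 1.77-fold. Without replicate 3, AARS still spanned 1.58-fold and YARS 1.49-fold, CARS spanned 1.32-fold and no mitochondrial gene passed 1.4-fold, when 21.6% of all detected genes did.

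**Figure D3:**
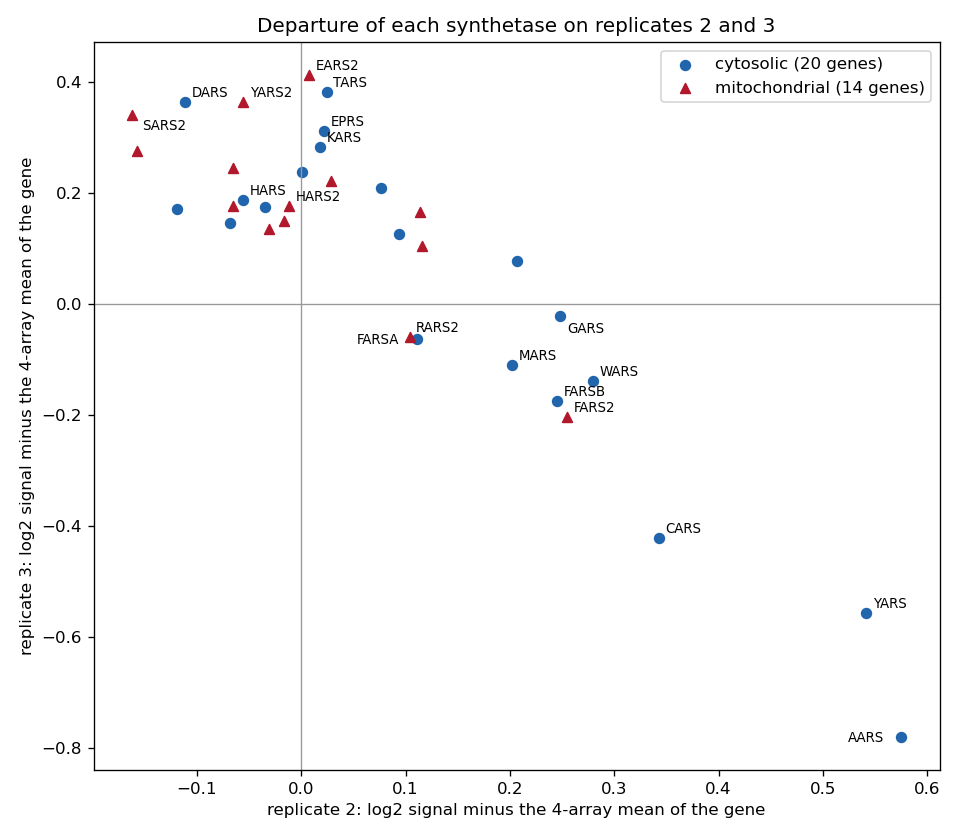
Departure of each detected synthetase from its own 4-array mean, in log2 units, on replicate 2 (horizontal) and replicate 3 (vertical), for cytosolic (circles) and mitochondrial genes (triangles). The departures of a gene over the 4 arrays sum to 0, so the axes are not independent. AARS, YARS and CARS sit at the lower right, and EARS2, TARS, DARS and YARS2 at the top.

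Probes within 1 transcript gave different answers on replicate 3, which bears on every gene read by a single probe. IARS had 3 probes on 1 transcript, starting at bases 863, 3606 and 4204 (GRCh37 chr9:95043107-95043166, chr9:94991283-94991342 and chr9:94972871-94972930, minus strand). MARS had 2, starting at bases 695 and 2849 (chr12:57884057-57884116 and chr12:57910373-57910432, plus strand). The first 30 of their 60 bases are shown, with those of the single AARS and YARS probes, which start at bases 2516 and 1949 of their transcripts (chr16:70287876-70287935 and chr1:33245799-33245858, minus strand), because these probes carry the largest movements.
IARS, base 863: gatccttcagtatttgtaactttccctttg
IARS, base 3606: ttgtcactagcatttttggtgtgaaaaata
IARS, base 4204: tcaagtaacttgagacctcacagtaatctt
MARS, base 695: agagactgtactgaaacagcaaggtgtcct
MARS, base 2849: ggctcatagaaagtcactttaatagatagg
AARS: gccactgcagtcatcccccagtggcagaag
YARS: tatgtagagaagattgacgtgggggaagct

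The IARS probe at base 863 measured 2.34, 2.51, 2.04 and 2.23 and was lowest on replicate 3. The IARS probe at base 4204 measured 7.14, 7.31, 7.54 and 7.05 and was highest there. The probe between them, at base 3606, measured 4.75, 5.06, 4.93 and 4.66, and as the middle value it set the level of the gene. In MARS the upstream probe measured 2.90, 3.03, 2.39 and 2.54 and the downstream probe 6.63, 6.86, 6.87 and 6.72. The departure of the downstream probe minus that of the upstream probe on replicate 3 was 0.52 for IARS and 0.43 for MARS, and on replicates 1, 2 and 4 it was -0.18, -0.18 and -0.16 for IARS and -0.33, -0.23 and 0.13 for MARS. Direction on replicate 3 thus differed between probes of the same gene.

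**Figure D4:**
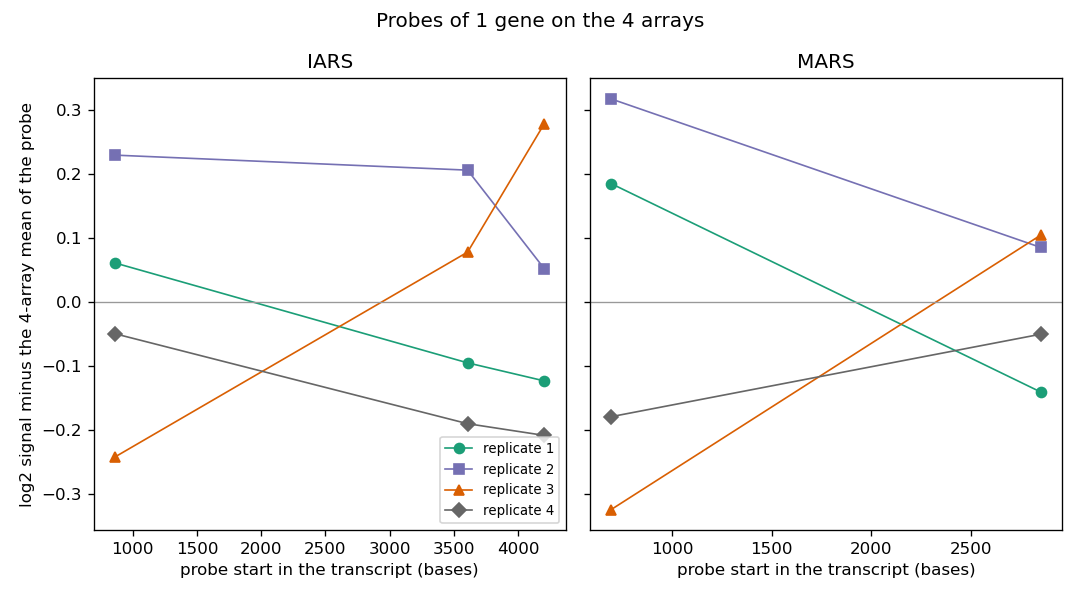
Log2 signal of each IARS (left) and MARS (right) probe minus its own 4-array mean (vertical), against the start of the probe in the transcript in bases (horizontal), with 1 line per replicate. On replicate 3 the line runs upward from the upstream to the downstream probe in both genes.

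The same order was seen across the array. Over the 1896 transcripts with detected probes at least 500 bases apart, the median of this difference was -0.12, -0.14, 0.25 and -0.00 on replicates 1 to 4, and on replicate 3 the downstream probe was the higher in 79% of transcripts. After quantile normalization it was 0.18 and 76.6%. Positions of single probes are given as description only, without their distance to the end of the transcript. The LARS probe starts at base 302 and was highest on replicate 3, but on replicate 4 after quantile normalization. The AARS probe starts at base 2516 and was lowest on replicate 3 on both scales. Across probes, the departure on replicate 3 had a Spearman's rho of -0.44 with the G and C content of the probe over 24633 detected probes and -0.12 over the 39 detected member probes. With probe start it was 0.29 and 0.35, and with the mean signal of the probe 0.26 and 0.29. In IARS and MARS the upstream probe was also the dimmer, so position and signal cannot be told apart there. These are descriptions over probes that share the same arrays. The AARS and YARS probes both have a G and C content of 55% and the CARS probe 40%. The part of probe position, base composition and signal level in the movements of AARS, YARS and CARS was not tested.

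SARS, the serine enzyme, had 3 probes on different transcripts, all under 1 gene name. The probe of its main coding transcript (GRCh37 chr1:109780709-109780768) measured 7.96, 8.10, 8.15 and 8.06. A probe of another transcript (chr1:109779432-109779491) measured 1.36, 1.49, 1.19 and 1.03, and a probe of a noncoding transcript (chr1:109759720-109759779) measured 3.72, 4.05, 4.09 and 3.98. The median over probes, 3.96 ± 0.17, is thus the value of the noncoding transcript, and the coding probe alone would place SARS among the brightest cytosolic members.

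A list of 13 genes that work beside the synthetases was described in the same way. All 13 were detected, against 52.5% of all gene names on the array. A span over 1.4-fold was seen in 1, against 46.4% of all detected genes, and 10 were highest on replicate 3, against 48.5%. The median SD was 0.15, against 0.21 for all detected genes. These values were taken before quantile normalization, after which the low spread of the synthetases and their excess on replicate 3 were gone. Both stayed with the processed signal and when centred on the median over all probes. Here too the spread was not matched for level. AIMP1 and AIMP2, which are among the scaffold proteins of the multisynthetase complex, had levels of 6.13 ± 0.17 and 5.42 ± 0.17. XPOT, which exports tRNA from the nucleus, measured 3.46, 4.13, 4.60 and 3.76 and spanned 2.20-fold, with its highest value on replicate 3. XPOT thus moved in the direction of DARS, TARS and EARS2 on replicate 3 and not in that of AARS. QRSL1, PET112 and GATC, the subunits of the amidotransferase that makes mitochondrial glutaminyl-tRNA, had levels of -0.42 ± 0.22, 2.99 ± 0.10 and 2.04 ± 0.12. MTFMT, which formylates the mitochondrial initiator methionyl-tRNA, had a level of 2.64 ± 0.11. The remaining genes of the list, EEF1E1, SEPSECS, PSTK, DTD1, AARSD1 and PTRH2, had SDs of 0.12 to 0.18.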

How the data were processed

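The authors hybridised labelled RNA of each culture to a one-colour Agilent 60-mer array and deposited the scanner output of Feature Extraction 10.7.3.1, which gives each spot a background-subtracted fluorescence intensity in linear units, with no normalization across arrays. Probe coordinates are those of GRCh37.

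Control spots and spots with an outlier flag were dropped, and repeated spots were averaged per probe. As in the study's methods, signals were log2 transformed (values at or below 0 were dropped), centred on the array median of the non-control probes and summarised per gene by the median of its probes. Python 3.11.15 with numpy 2.4.6, pandas 2.3.3 and scipy 1.17.1, and for normexp (offset 50) and quantile normalization R 4.3.3 with limma 3.58.1, were used. The steps were tested on simulated data. With 4 arrays of 1 group no test was run, and the number of arrays limits the precision. The series describes the treated samples as biological replicates. Described in full were members not detected, those with the largest and smallest SD, the extremes of level, genes of both compartments, neighbouring genes and genes with several probes or spots. The members and lists were chosen with earlier results of these data known. Alternatives were other background and scaling steps, probe summaries, detection rules, fold limits and leaving out each replicate. Sequences came from the array files and RefSeq. A further related gene and a further marker were left out of the lists and are not reported here.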

Additional observations from a re-analysis of the deposited data

Results flagged for a closer look

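In 3 detected synthetases and 1 related gene a single array stood apart from the other arrays, by its gap to the nearest value over the whole range. HARS stood at 6.38, QARS at 8.44 and PARS2 at 3.49, all on replicate 3 and above the rest. GATC stood at 1.86 on replicate 4, below the rest. The gap ratios were 0.858, 0.843, 0.925 and 0.881. These are 4 of 47 genes examined, where chance gives about 5%, and 8.48% of all detected genes met the same limit. Without replicate 3, the spans of HARS, QARS and PARS2 were 1.03-, 1.02- and 1.02-fold. Since these genes were picked for the gap of that array, such small spans follow from the choice. After quantile normalization PARS2 stayed highest on replicate 3, with a departure of 0.13, whereas QARS was highest on replicate 4. HARS then departed by 0.03 on replicate 3 and 0.02 on replicate 1.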

How the results depend on the processing

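Levels moved with the scale, and the low TARS2 levels given above also entered the mitochondrial medians of the processed signal and of quantile normalization. With the processed signal and 75th-percentile centring, the median levels were 3.28 (cytosolic) and 0.88 (mitochondrial), their difference 2.40, the median SDs 0.15 and 0.11, and 1 mitochondrial gene spanned over 1.4-fold. After normexp and quantile normalization these levels were 11.71 and 9.51, the SDs 0.14 and 0.10, and 1 mitochondrial gene passed. Centred on the median over all probes, the levels were 6.64 and 4.40, and 9 and 4 genes spanned over 1.4-fold. At a 2-fold limit, 2 cytosolic and 0 mitochondrial genes passed.

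Leaving out each replicate in turn gave median SDs of 0.14 to 0.22 (cytosolic) and 0.074 to 0.17 (mitochondrial). Counts over 1.4-fold ran from 2 to 6 and from 0 to 3, lowest without replicate 3. Median levels ran from 5.49 to 5.60 and from 3.25 to 3.36. Detection counts stayed at 20 and 14.

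The detection rules gave 20 cytosolic genes each time and 13 to 15 mitochondrial genes. The cytosolic median stayed above the mitochondrial one in every alternative run. The cytosolic mean departure on replicate 3 changed sign (0.02 to -0.12 after quantile normalization). With quantile normalization the median SD of members went from below that of all detected genes (0.17 against 0.21) to above it (0.13 against 0.11). It stayed below with the processed signal (0.14 against 0.18) and when centred on the median over all probes (0.19 against 0.22). The rise of downstream over upstream probes on replicate 3, examined after seeing the data, was 0.25 with probes at least 1000 bases apart, 0.26 with the processed signal and 0.26 with outlying spots kept. No paired analysis was possible because only 1 group was analysed. Genes read by 1 spot or near background, such as MARS2, limit what can be said.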
